A study of Mus musculus with 12 samples.

Results

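The 5 V segments TRAV17, TRAV18, TRAV19, TRAV20 and TRAV21/DV12 lie together near the J end of the V cluster of the mouse T cell receptor alpha locus. Their joins were taken as all productive clonotypes, in frame and without a stop codon in the CDR3, whose best V segment was one of the 5. They numbered 4283 of 165126 productive clonotypes in 12 libraries (2.59%) and 8035 of 344406 productive reads, and came from 5 of 103 V segments. TRAV21/DV12 gave 4085 reads in 2347 clonotypes, TRAV19 gave 3706 in 1762, TRAV17 gave 126 in 89, TRAV20 gave 97 in 68 and TRAV18 gave 21 in 17. TRAV19 and TRAV21/DV12 together made up 97.0% of the 8032 reads joined to a TRAJ segment. The other 3 reads were 1 clonotype of TRAV21/DV12 joined to a delta chain J segment, in 1 library. None of the clonotypes of these segments had a tied best V (0), whereas 30.4% to 44.2% of the productive alpha chain reads of a library did.

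The 4 groups were CD4 single-positive (CD4SP) thymocytes of Chrna9-/- (knockout) mice, CD4SP thymocytes of wild-type (WT) mice, CD8 single-positive (CD8SP) thymocytes of knockout mice and CD8SP thymocytes of WT mice, with 3 libraries each. Chrna9 encodes a subunit of nicotinic acetylcholine receptors, and the study's title names cholinergic control of negative selection, the removal of self-reactive thymocytes. The mice formed 2 male pairs and 1 female pair. The sources used here do not give age, strain or the design of the Chrna9 allele. Receptor libraries cannot show Chrna9 expression, and the genotype was therefore not checked. A sample held 1000000 sorted CD4SP or 330000 sorted CD8SP cells, sorted by CD4 and CD8 alone, and RNA was amplified for the alpha and beta chains. CD4SP and CD8SP libraries with the same genotype and number were taken as the same mouse, so 6 mice entered. Counts over mice and tests with the mouse as a block rest on this, and the libraries do not show it: clonotype overlap was 7.08% to 7.92% between libraries taken as the same mouse, 9.46% to 11.01% between libraries of the same group and 5.81% to 11.4% between other libraries. The labels do not say which number belongs to which pair, and p-values measure only the spread between these samples.

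An alpha chain gene is assembled in developing thymocytes by joining a V to a J segment, and the DNA between them is cut out. A cell can repeat this, each time taking a V segment farther upstream and a J segment farther downstream, until a receptor is selected or the cell dies. First joins therefore use V segments near the J cluster and J segments at its 5' end, which carry the high TRAJ numbers. The V segment encodes the first and second complementarity-determining loops (CDR1 and CDR2), which mostly touch the MHC molecule, and the join itself encodes CDR3, which lies over the bound peptide. CD4SP cells are selected on MHC class II and CD8SP cells on MHC class I.

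The loops encoded by each V segment are shown first because they tell the segments apart, in the form with the most reads in the clonotype tables. All are on chromosome 14 of mm10, in the V exon of the segment. TRAV17 lies at chr14:53806639-53807115, TRAV18 at chr14:53831105-53831827, TRAV19 at chr14:53845322-53845827, TRAV20 at chr14:53863110-53863661 and TRAV21/DV12 at chr14:53876016-53876752, all on the strand on which the J segments follow downstream. RefSeq annotates TRAV20 as a pseudogene and the others as V segments, and capitals mark an in-frame stop codon.
TRAV17 CDR1: tacagtgcagcaccttac
TRAV18 CDR1: accaccttcccccaa
TRAV19 CDR1: aatgatatgtttgactat
TRAV20 CDR1: aacTAAtta
TRAV21/DV12 CDR1: acaatcagtggaaacgagtac
TRAV17 CDR2: tacatcacaggagacaccgttgtt
TRAV18 CDR2: ttggtcaagagtggagaggta
TRAV19 CDR2: gtacgctcaaatgtggataag
TRAV20 CDR2: attcgctcaaatgtgaacaga
TRAV21/DV12 CDR2: ggtctacaacaaaat
The CDR1 of TRAV19 shown was carried by 99.6% of its reads with that loop, and that of TRAV21/DV12 by 99.7%. TRAV20 had a stop codon within its V part in 97 of 97 reads, 96 of them in CDR1. Its clonotypes counted as productive only because the CDR3 itself was open, so they encode no full alpha chain. A stop in the V part was found in 0.729% of TRAV19 reads and 0.196% of TRAV21/DV12 reads, and in 0 reads of TRAV17 and TRAV18.

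The joins that recurred most across libraries are shown next, each as its CDR3 nucleotide form with the most reads. Library numbers count the clonotype by amino acid sequence, pooled over its nucleotide forms, and not the printed form alone. The TRAV19 forms held 87 of 160, 27 of 56 and 40 of 48 reads of their clonotypes, in the order printed. The TRAV21/DV12 forms held 29 of 33, 16 of 32 and 24 of 39. Bases from the J segment are in capitals.
TRAV19 with TRAJ56, found in 12 of 12 libraries: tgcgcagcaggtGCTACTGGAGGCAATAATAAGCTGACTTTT
TRAV19 with TRAJ57, in 11 libraries: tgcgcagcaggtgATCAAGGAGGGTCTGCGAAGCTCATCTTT
TRAV19 with TRAJ56, in 9 libraries: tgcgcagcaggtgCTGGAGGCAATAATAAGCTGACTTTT
TRAV21/DV12 with TRAJ57, in 9 libraries: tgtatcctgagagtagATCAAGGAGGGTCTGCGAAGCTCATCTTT
TRAV21/DV12 with TRAJ56, in 9 libraries: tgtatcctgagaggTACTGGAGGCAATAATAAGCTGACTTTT
TRAV21/DV12 with TRAJ56, in 8 libraries: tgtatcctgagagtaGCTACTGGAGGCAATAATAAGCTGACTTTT
All 6 end in TRAJ56 or TRAJ57, near the 5' end of the J cluster. Of the 6 forms printed, 5 had 0 bases between the V and J ends, and the form in the fifth line had 1 inserted base.

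Libraries held 19847 to 33885 productive alpha chain reads in 10892 to 15509 clonotypes. The gates can hold other T cells, so their chains were counted as markers. The invariant natural killer T chain, TRAV11 joined to TRAJ18 in a CDR3 of 15 residues, made up 5.26% to 8.49% of alpha chain reads in CD4SP libraries and 0.0495% to 0.0983% in CD8SP libraries. Mucosal-associated invariant T chains, TRAV1 joined to TRAJ33, made up 0.0126% to 0.0403% and 0.0244% to 0.0464%. Reads whose best V or best J was a delta segment (TRDV or TRDJ) made up 0.798% to 1.04% and 0.686% to 1.16% of all reads. They can include a TRDV joined to a TRAJ, so this share does not measure gamma delta cells. Shares below are percentages of productive alpha chain reads, and in bulk libraries fewer cells with a segment and less RNA per cell cannot be told apart. Reads were not collapsed by molecule, so exact 95% binomial (Clopper-Pearson) intervals cover counting error only. They reached 0.105 to 0.151 percentage points on either side for TRAV19 and 0.101 to 0.183 for TRAV21/DV12.

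TRAV19 was used less in CD4SP than in CD8SP thymocytes. It made up 0.889%, 0.855% and 0.875% of reads in knockout CD4SP libraries and 0.922%, 0.772% and 1.03% in WT CD4SP libraries. In knockout CD8SP libraries it made up 1.31%, 1.27% and 1.09%, and in WT CD8SP libraries 1.36%, 1.25% and 1.24%. CD4SP libraries averaged 0.891% ± 0.0857 and CD8SP libraries 1.26% ± 0.0904 (SD, n = 6 mice each). The log2 fold change, CD4SP over CD8SP, was -0.50 (SE 0.072), lower in 6 of 6 mice, with an adjusted p of 3.50e-07 (edgeR quasi-likelihood F test, Benjamini-Hochberg over 125 V and J segments). In that test 78.4% of the 125 segments passed, so a call alone does not set a segment apart. The invariant chain takes up part of the CD4SP reads, and without it the fold change was -0.40 (adjusted p = 8.33e-06). Without clonotypes with a tied best V, which removes reads of other segments only, it was -0.25 (adjusted p = 0.00264).

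TRAV21/DV12 went the other way. It made up 1.51%, 1.39% and 1.28% of reads in knockout CD4SP libraries and 1.68%, 1.52% and 1.71% in WT CD4SP libraries. In CD8SP it made up 0.913%, 0.907% and 0.843% in knockout and 0.906%, 0.874% and 1.19% in WT libraries. CD4SP libraries averaged 1.52% ± 0.167 and CD8SP libraries 0.938% ± 0.124 (SD, n = 6 mice each). The log2 fold change was 0.69 (SE 0.066, edgeR adjusted p = 1.44e-10), higher in 6 of 6 mice, and without the invariant chain it was 0.79. With library-size scaling the median segment lay at -0.09, while TMM factors put it at -0.0037 and DESeq2's size factors at 0.020. The directions of TRAV19 and TRAV21/DV12 held under each of them.

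The 3 rarer segments rested on few reads. TRAV17 averaged 0.0516% ± 0.0131 in CD4SP and 0.0265% ± 0.0231 in CD8SP (SD, n = 6), from 10 to 22 reads in a CD4SP library and 1 to 16 in a CD8SP library. The ranges overlapped, and the log2 fold change was 1.03 (SE 0.39, edgeR adjusted p = 0.0189), higher in CD4SP in 5 of 6 mice. That call ended without clonotypes of 1 read (0.91, adjusted p = 0.334) and without knockout mouse 2 (adjusted p = 0.0736), knockout mouse 3 (0.0619) or WT mouse 3 (0.0534). The pseudogene TRAV20 had 3 to 7 reads in a CD4SP library and 2 to 15 in a CD8SP library, at 0.0198% ± 0.0050 and 0.0367% ± 0.0185, with a log2 fold change of -0.80 (SE 0.39) that did not pass (edgeR adjusted p = 0.0628). Without knockout mouse 2 it passed, at -1.06 (adjusted p = 0.0212). TRAV18 was too rare to test. It had 1, 5 and 6 reads in knockout CD4SP libraries, 1, 1 and 0 in WT CD4SP, 0, 4 and 0 in knockout CD8SP and 2, 0 and 1 in WT CD8SP. A count of 0 allows a share of up to 0.00885% to 0.0151% in these libraries, by counting error only.

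**Figure D1:**
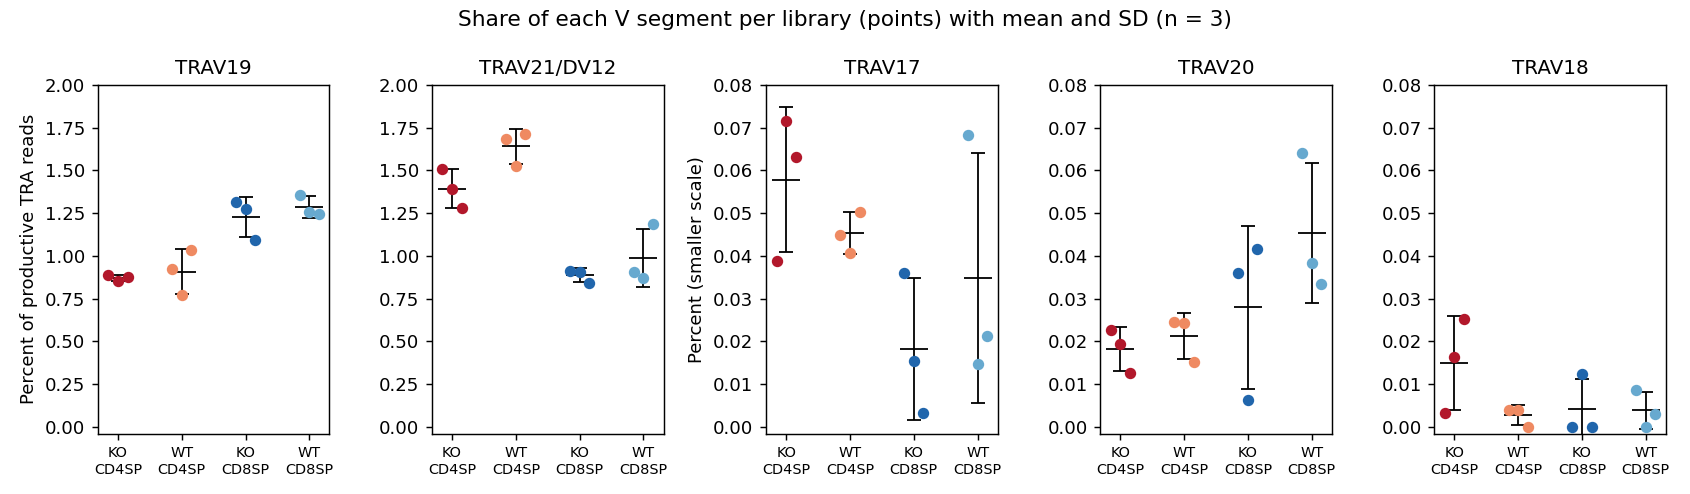
Share of productive alpha chain reads (y axis, percent) of each of the 5 V segments in each library, with the mean and SD of the 3 libraries of a group; the right 3 panels have a smaller scale. TRAV19 lies lower in CD4SP (0.772% to 1.03%) than in CD8SP (1.09% to 1.36%), and TRAV21/DV12 higher (1.28% to 1.71% against 0.843% to 1.19%).

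The segments whose usage followed each of the main ones most closely over the 12 libraries were found among 67 other V segments with a mean share of at least 0.1%. For TRAV19 they were TRAV7D-3, TRAV7D-5 and TRAV7-3, with a mean absolute difference in centred log2 share of 0.0925, 0.0997 and 0.108. For TRAV21/DV12 they were TRAV6-4 (0.122), TRAV6-5 (0.128) and TRAV7-2 (0.142). Neither segment was among the 3 nearest of the other.

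J partners of TRAV19 and TRAV21/DV12 leaned strongly to the 5' end of the J cluster. The mean TRAJ number of TRAV19 joins, weighted by reads, was 49.0, 50.5 and 48.0 in knockout CD4SP, 49.1, 49.8 and 50.4 in WT CD4SP, 49.2, 48.2 and 47.5 in knockout CD8SP and 48.0, 47.8 and 48.1 in WT CD8SP libraries. For TRAV21/DV12 it was 50.1, 48.9 and 49.2 in knockout CD4SP, 49.6, 47.7 and 49.7 in WT CD4SP, 46.0, 46.7 and 46.1 in knockout CD8SP and 47.7, 48.5 and 46.5 in WT CD8SP libraries. Joins of V segments other than these 5 averaged 25.5 ± 0.319 in CD4SP and 26.1 ± 0.170 in CD8SP (SD, n = 6), so no library of either segment came near them. J segments of the 5' end, TRAJ42 to TRAJ61, took 83.4% ± 3.78 of TRAV19 reads in CD4SP and 80.9% ± 2.14 in CD8SP, and 82.9% ± 4.06 and 76.6% ± 3.86 of TRAV21/DV12 reads. In joins of V segments outside the 5 they took 12.5% ± 0.534 and 14.7% ± 0.681. The 3' end, TRAJ1 to TRAJ21, took 1.56% ± 0.806 and 1.67% ± 0.845 of TRAV19 reads and 1.39% ± 0.740 and 1.97% ± 1.47 of TRAV21/DV12 reads, against 40.6% ± 1.52 and 33.7% ± 0.276 in those joins.

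The difference in mean TRAJ number between a V segment and all other joins of the same library was tested with limma over the 60 V segments with at least 50 reads per library. TRAV19 stood 23.6 higher in CD4SP (SE 0.39) and 21.8 higher in CD8SP (SE 0.39). TRAV21/DV12 stood 23.5 (SE 0.37) and 20.5 (SE 0.37) higher, each in 6 of 6 mice. Of the 60, 38.3% were called higher in CD4SP and 36.7% in CD8SP, and TRAV19 and TRAV21/DV12 had the highest mean TRAJ numbers in both cell types, in that order. The limma adjusted p values lay between 9.46e-233 and 3.85e-208, which draw on a spread pooled over all V segments rather than on 12 libraries. With no trend of that spread on reads, an alternative chosen after seeing the data, the TRAV19 value in CD4SP had an adjusted p of 1.12e-15. The exact two-sided sign-flip permutation test over 6 mice gave p = 0.0312 for each of the 4 differences, the smallest it can give, and 0.0508 after adjustment over 26 such values, which misses the threshold of 0.05.

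Among the J segments used more than in other joins, those nearest the 5' end had the highest ratios. TRAJ56, TRAJ57 and TRAJ58 together took 47.2% ± 5.97 of TRAV19 reads in CD4SP and 34.4% ± 3.31 in CD8SP, and 43.5% ± 3.19 and 31.5% ± 4.65 of TRAV21/DV12 reads (SD, n = 6). Joins of V segments outside the 5 had 1.88% ± 0.202 and 1.65% ± 0.0910. In a test of each TRAJ segment within the joins of a V segment against all other V segments, edgeR called 13.9% of 2580 V and J pairs higher and 23.8% lower in CD4SP, and 13.8% higher and 26.4% lower in CD8SP. For TRAV19, 11 of 43 TRAJ segments were higher and 23 lower in CD4SP, and 12 higher and 24 lower in CD8SP. For TRAV21/DV12, 11 were higher and 24 lower in CD4SP, and 15 higher and 23 lower in CD8SP. In all 4 cases no TRAJ numbered above 33 was called lower, and the lowest number called higher was 42, 39, 44 and 37 in the order given.

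The largest single preferences were shared by both segments. TRAJ57 took 20.2% of TRAV19 reads in CD4SP (276 of 1366), against 0.914% of other joins, a log2 ratio of 4.44 (SE 0.19). TRAJ56 took 18.3% of TRAV19 reads (250), against 0.997%, a ratio of 4.21 (SE 0.17), and TRAJ58 took 8.64% (118), against 0.636%, a ratio of 3.75 (SE 0.29). TRAJ47 at 2.84 and TRAJ53 at 2.52 came next. For TRAV21/DV12 in CD4SP the order was TRAJ58 with 12.6% of 2325 reads (ratio 4.58, SE 0.17), TRAJ57 with 17.8% (4.41, SE 0.18), TRAJ56 with 13.3% (3.77, SE 0.18), TRAJ49 with 11.2% (2.54) and TRAJ52 with 3.91% (2.47). The edgeR adjusted p values of the 10 joins named here ran from 2.67e-89 to 1.17e-07.

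In CD8SP cells TRAJ56, TRAJ57 and TRAJ58 again had the highest ratios with both segments. For TRAV19 they were TRAJ56 with 16.7% of 2340 reads (log2 ratio 4.30, SE 0.17), TRAJ57 with 12.1% (4.17), TRAJ58 with 5.94% (3.70), TRAJ53 with 5.34% (3.35) and TRAJ48 with 9.32% (2.48). For TRAV21/DV12 they were TRAJ57 with 12.4% of 1757 reads (4.16, SE 0.20), TRAJ58 with 7.68% (4.10), TRAJ56 with 11.2% (3.58), TRAJ50 with 4.50% (2.25) and TRAJ52 with 3.36% (2.20). The edgeR adjusted p values of these 10 joins ran from 1.75e-61 to 2.59e-10.

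Of the 43 TRAJ segments tested, TRAV19 had 0 reads with 9 in CD4SP and with 6 in CD8SP, and TRAV21/DV12 had 0 reads with 2 in CD4SP and with 4 in CD8SP. TRAV19 had 0 of 1366 CD4SP reads with TRAJ23, TRAJ12, TRAJ17, TRAJ7 and TRAJ4, which allows a share of up to 0.220%. TRAJ23 took 5.56% and TRAJ12 took 4.49% of other joins, so they were at least 25.3-fold and 20.5-fold lower with TRAV19, the floor being 3 reads over the 6 libraries. All such bounds here take each read as an independent draw, although reads were not collapsed by molecule, so they cover counting error only. TRAJ17 was at least 13.6-fold lower, TRAJ7 at least 8.09-fold and TRAJ4 at least 6.55-fold. In CD8SP, TRAV19 had 0 of 2340 reads with TRAJ7, TRAJ4, TRAJ11, TRAJ16 and TRAJ2, which were at least 18.5-fold, 12.6-fold, 12.3-fold, 8.96-fold and 5.68-fold lower. TRAV21/DV12 had 0 of 2325 CD4SP reads with TRAJ15, at least 37.5-fold lower, and with TRAJ7, at least 13.9-fold lower. It had 1 CD4SP read each with TRAJ18 (log2 ratio -7.65, SE 0.58), TRAJ9 (-6.25) and TRAJ17 (-6.10). TRAJ18, the J segment of the invariant chain, took 8.92% of other CD4SP joins, and that chain alone made up 5.26% to 8.49% of CD4SP reads. In CD8SP, TRAJ18 took 1.83% of other joins, and its log2 ratio with TRAV21/DV12 was -4.98 (SE 0.89, 1 read). In CD8SP, TRAV21/DV12 had 0 of 1757 reads with TRAJ11, TRAJ16, TRAJ5 and TRAJ28, at least 9.18-fold, 6.71-fold, 3.28-fold and 3.30-fold lower, and 1 read with TRAJ12 (-6.35, SE 0.71).

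**Figure D2:**
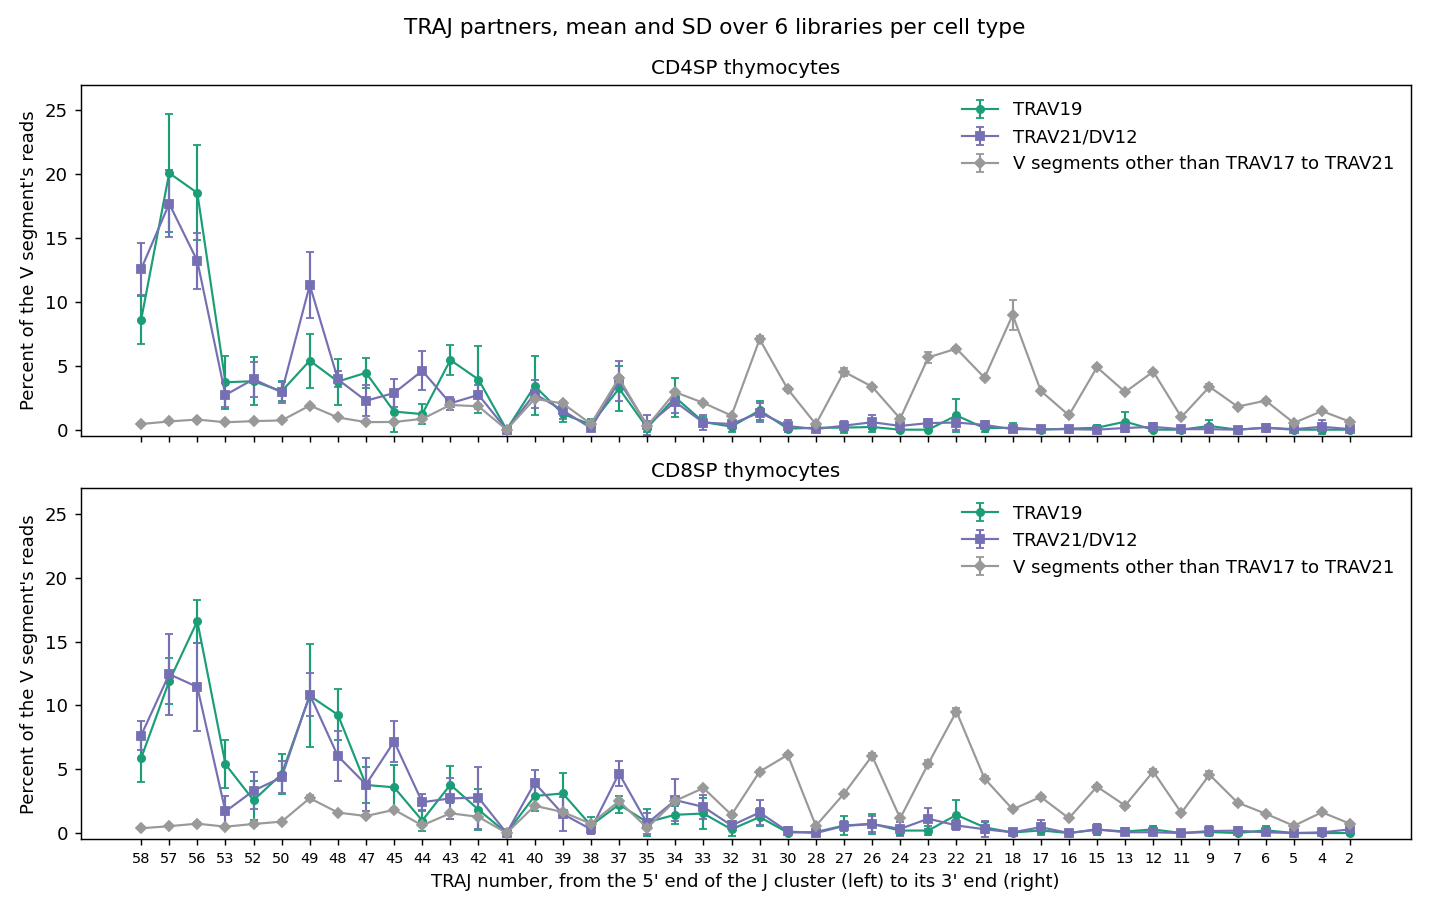
Percent of the reads of TRAV19, of TRAV21/DV12 and of the V segments outside the 5 that used each TRAJ (y axis), from high to low TRAJ number (x axis), as mean and SD of 6 libraries per cell type. TRAV19 and TRAV21/DV12 peak at TRAJ56 to TRAJ58, with a second peak at TRAJ49 for TRAV21/DV12 in both cell types and for TRAV19 in CD8SP, and lie near 0 from TRAJ30 down, where the other V segments have most of their reads.

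In TRAV17 and TRAV20 the mean TRAJ number was also above that of V segments outside the 5 in every library, at 36.7 or more and 35.6 or more, against at most 26.3. These library means rested on 1 to 22 reads for TRAV17 and on 2 to 15 for TRAV20. TRAV17 had a mean TRAJ number of 45.9 ± 3.95 in CD4SP and 39.9 ± 4.27 in CD8SP (SD, n = 6), and used 24 TRAJ segments. TRAV20 had 46.2 ± 5.43 and 44.9 ± 6.84 with 25 TRAJ segments. TRAV18, with 21 reads, used 9, and its library means ran from 15 to 57. These 3 were below the minimum of 50 reads per library and were not tested.

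Along the locus, V segments near the J cluster had higher mean TRAJ numbers, but the far end was not the lowest. The J cluster spans 63.8 kb between its outermost starts, and TRAV21/DV12 lies 278 kb and TRAV19 lies 309 kb upstream of its first J segment. TRAV14-3, the nearest tested V segment outside the 5 at 391 kb, had 44.8 ± 1.05 in CD4SP and 43.8 ± 3.52 in CD8SP (SD, n = 6). TRAV1 and TRAV2, at the far end (1726 and 1587 kb), had 22.7 ± 0.712 and 21.3 ± 1.36 in CD4SP and 24.1 ± 1.12 and 22.2 ± 1.99 in CD8SP. In CD4SP the lowest mean was 18.7 for TRAV4D-4 at 1164 kb, whose clonotypes were all tied with another V, and TRAV8D-1 at 1376 kb had 27.97, both named after their values were seen. Across the 60 V segments, distance and mean TRAJ number had a Pearson r of -0.73 in CD4SP and -0.74 in CD8SP, and -0.70 and -0.71 without TRAV19 and TRAV21/DV12. Tied clonotypes leave the place of some of the 60 unsure. Over the 48 V segments with under 10% of clonotypes tied, r was -0.739 and -0.736. These describe V segments that share libraries and neighbours, and carry no test. By the distance between whole TRAJ profiles (0 for equal, 1 for no overlap), TRAV19 and TRAV21/DV12 were each other's nearest at 0.161, then came TRAV14-3 (0.228 and 0.231) and TRAV13-4-DV7 (0.283 and 0.272), against a median of 0.746 and 0.744 over 67 V segments.

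**Figure D3:**
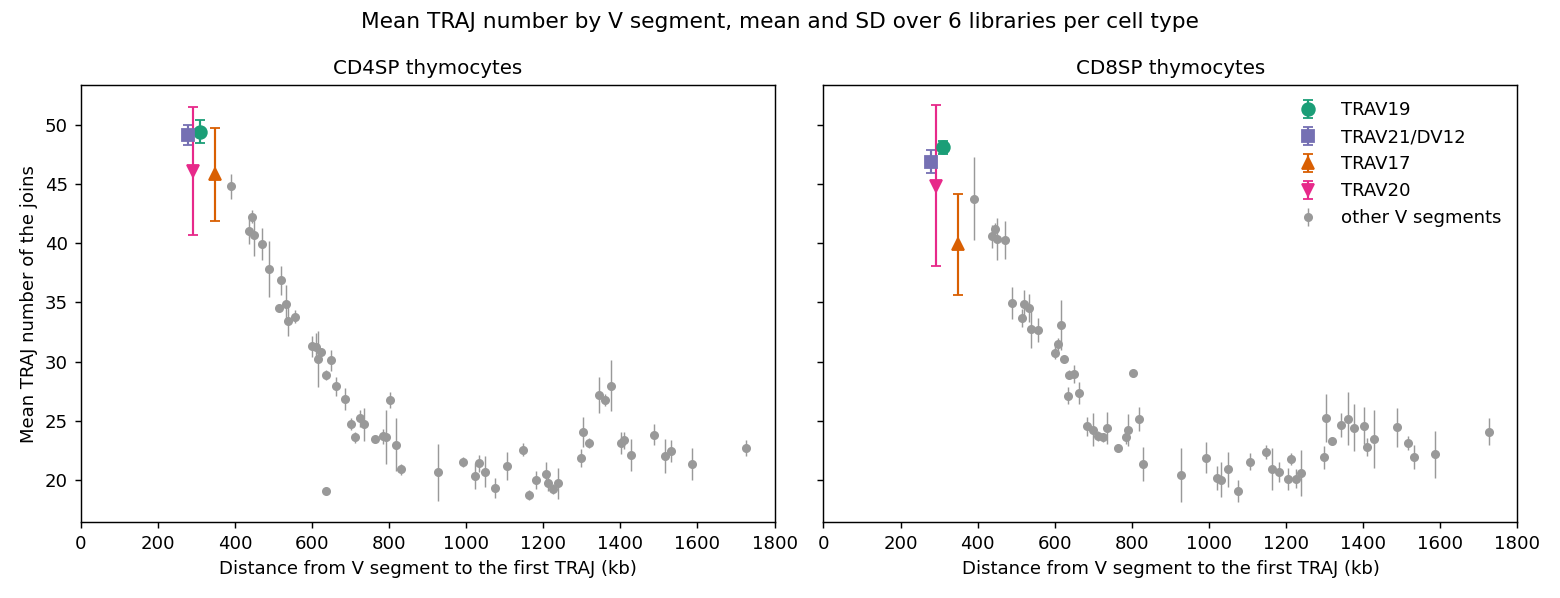
Mean TRAJ number of each V segment (y axis) against its distance from the first J segment in kb (x axis), as mean and SD of 6 libraries. TRAV19 and TRAV21/DV12 are at the top left, with means of 49.5 and 49.2 in CD4SP and 48.1 and 46.9 in CD8SP. TRAV1 and TRAV2 at the far right lie between 21.3 and 24.1. The low CD4SP point at 635 kb is TRAV11, the V segment of the invariant chain, whose clonotypes were all tied with another V.

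By mean TRAJ number, the 5' lean was larger in CD4SP than in CD8SP thymocytes for TRAV21/DV12. Its excess in mean TRAJ number over the other joins was larger by 2.99 (SE 0.54, limma adjusted p = 6.60e-07), in 6 of 6 mice, in a test in which 35% of 60 V segments passed. For TRAV19 the excess was larger by 1.83 (SE 0.56, adjusted p = 0.00494), also in 6 of 6 mice. The TRAV19 call ended with each clonotype counted once (1.23, adjusted p = 0.0767), without tied clonotypes (0.72, adjusted p = 0.348), without the invariant chain (1.27, adjusted p = 0.0869) and with the other joins not subtracted (1.33, adjusted p = 0.0716, chosen after seeing the data). The share of TRAJ56 to TRAJ58 was higher in CD4SP by 12.9 ± 6.96 percentage points for TRAV19 and by 11.96 ± 7.09 for TRAV21/DV12 (SD over 6 mice), in 6 of 6 mice each (exact sign-flip permutation p = 0.0312, adjusted 0.0508). For the whole 5' end, TRAJ42 to TRAJ61, the difference was 2.51 ± 3.03 points for TRAV19 and 6.25 ± 6.95 for TRAV21/DV12. It was above 0 in 5 of 6 mice each and did not pass (exact sign-flip permutation p = 0.0938, adjusted 0.122). Over all V segments, TRAJ58 and TRAJ57 were higher in CD4SP, at 0.46 and 0.44, and TRAJ56 did not pass, at 0.14 (edgeR adjusted p = 0.0772).

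Single V-J joins were tested next, because the segments moved in opposite directions between CD4SP and CD8SP. Of 959 V-J joins with enough reads, edgeR called 22.8% higher and 29.3% lower in CD4SP. TRAV19 had 16 such joins, of which 0 were higher and 6 were lower, and the median log2 fold change was -0.37, against -0.09 over all joins. TRAV21/DV12 had 16, of which 7 were higher and 0 lower, with a median of 0.61. With each clonotype counted once, 2 TRAV19 joins and 1 TRAV21/DV12 join were lower. At an unadjusted p under 0.05 there were likewise 0 joins of TRAV19 higher and 0 of TRAV21/DV12 lower. TRAV19 with TRAJ45 fell by 1.94 (SE 0.56, 19 CD4SP and 82 CD8SP reads), and with TRAJ48 by 1.79 (SE 0.32, 53 and 218 reads). TRAV19 with TRAJ39 fell by 1.64, with TRAJ49 by 1.49 (SE 0.28) and with TRAJ50 by 1.07 (edgeR adjusted p from 1.51e-07 to 0.0160 for these 5). TRAJ45, TRAJ48 and TRAJ49 were also lower in CD4SP over all V segments, at -1.55, -0.76 and -0.50, while TRAJ39 was higher, at 0.29. With the 5'-most J segments TRAV19 did not pass, at 0.07 for TRAJ58 (SE 0.30), 0.24 for TRAJ57 (SE 0.21) and -0.35 for TRAJ56 (SE 0.19).

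TRAV21/DV12 rose in CD4SP with TRAJ44 by 1.58 on the log2 scale (SE 0.38, 108 CD4SP and 43 CD8SP reads), with TRAJ53 by 1.47 (SE 0.55, 62 and 29 reads) and with TRAJ58 by 1.39 (SE 0.24, 293 and 135 reads). It rose with TRAJ57 by 1.22 (SE 0.20, 415 and 217 reads) and with TRAJ56 by 0.93 (SE 0.21, 310 and 197 reads), with edgeR adjusted p from 4.83e-09 to 0.0173 for these 5 and higher values in CD4SP in 6 of 6 mice for each. TRAJ49 was lower in CD4SP over all V segments but higher with TRAV21/DV12, at 0.73 (SE 0.23, adjusted p = 0.0036).

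**Figure D4:**
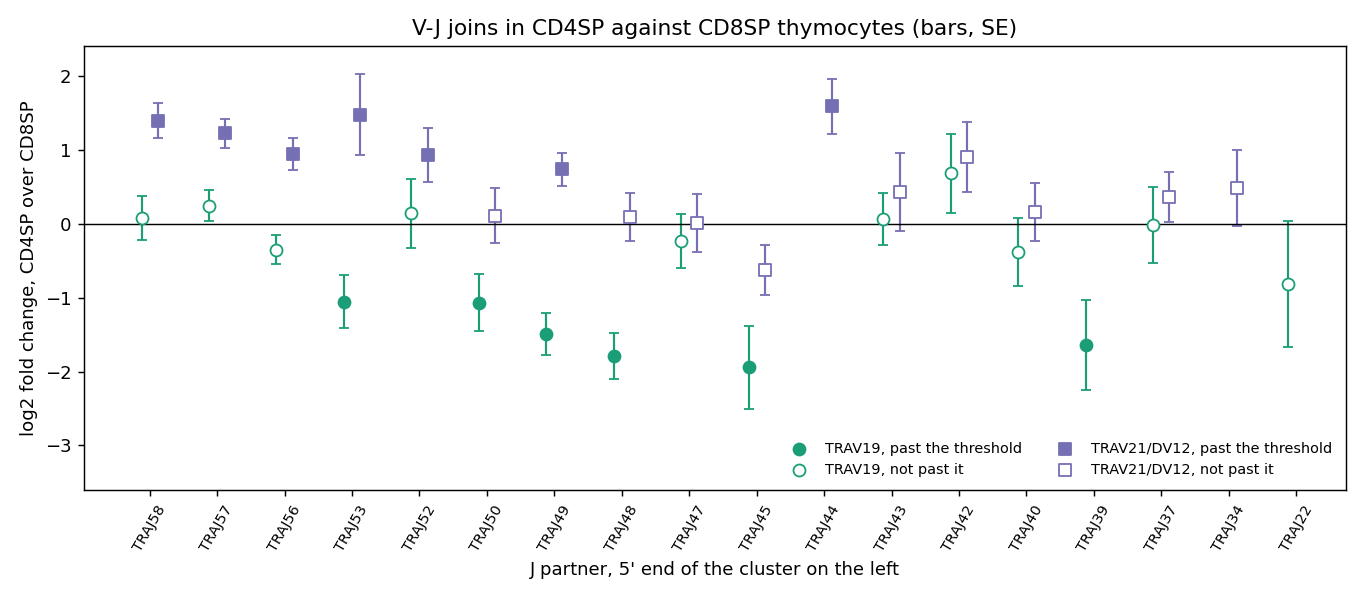
Log2 fold change, CD4SP over CD8SP, with SE (y axis) for the 16 tested joins of TRAV19 and the 16 of TRAV21/DV12, by J partner from the 5' end (x axis); filled symbols passed the threshold. The 7 filled squares of TRAV21/DV12 are above 0 and the 6 filled circles of TRAV19 are below 0; with each clonotype counted once in place of its reads, 2 TRAV19 joins and 1 TRAV21/DV12 join were lower.

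Nonproductive joins, which carry a frame shift or stop in the CDR3 and so were not selected for their own protein, were set beside the productive ones. TRAV19 nonproductive joins had a mean TRAJ number of 46.6 ± 2.57 in CD4SP and 47.6 ± 0.807 in CD8SP (SD, n = 6), from 17 to 40 reads a library, against 49.5 ± 0.962 and 48.1 ± 0.574 in productive joins. TRAV21/DV12 nonproductive joins had 48.4 ± 1.36 and 44.6 ± 2.23, from 8 to 34 reads a library, against 49.2 ± 0.849 and 46.9 ± 0.974. Nonproductive joins of V segments outside the 5 averaged 25.9 ± 0.244 and 26.4 ± 0.501, so the lean to the 5' end was present in nonproductive joins too, in 6 of 6 mice for each segment and cell type (exact sign-flip permutation p = 0.0312, adjusted 0.0508). The nonproductive mean was below the productive one by 2.83 and 0.54 for TRAV19 (exact sign-flip permutation p = 0.125 and 0.0312). For TRAV21/DV12 it was below by 0.79 and 2.28 (exact sign-flip permutation p = 0.25 and 0.0938). None of the 4 passed after adjustment (lowest 0.0508). For TRAV19 in CD8SP the nonproductive mean was lower in 6 of 6 mice, at the smallest p this test can give. Missing the threshold there does not show that the means were equal. TRAV20 had on average more nonproductive than productive reads, 65.4% ± 13.3 nonproductive in CD4SP and 60.5% ± 17.6 in CD8SP. Its library values ran from 50% to 80% in CD4SP and from 45.8% to 93.9% in CD8SP. For TRAV19 the nonproductive share was 10.9% ± 2.83 and 7.43% ± 1.63, and for TRAV21/DV12 it was 4.39% ± 0.846 and 6.06% ± 2.89, against 7.51% ± 0.193 and 7.82% ± 0.352 in V segments outside the 5. TRAV21/DV12 was below these in 6 of 6 mice in CD4SP (exact permutation p = 0.0312, adjusted 0.0508).

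**Figure D5:**
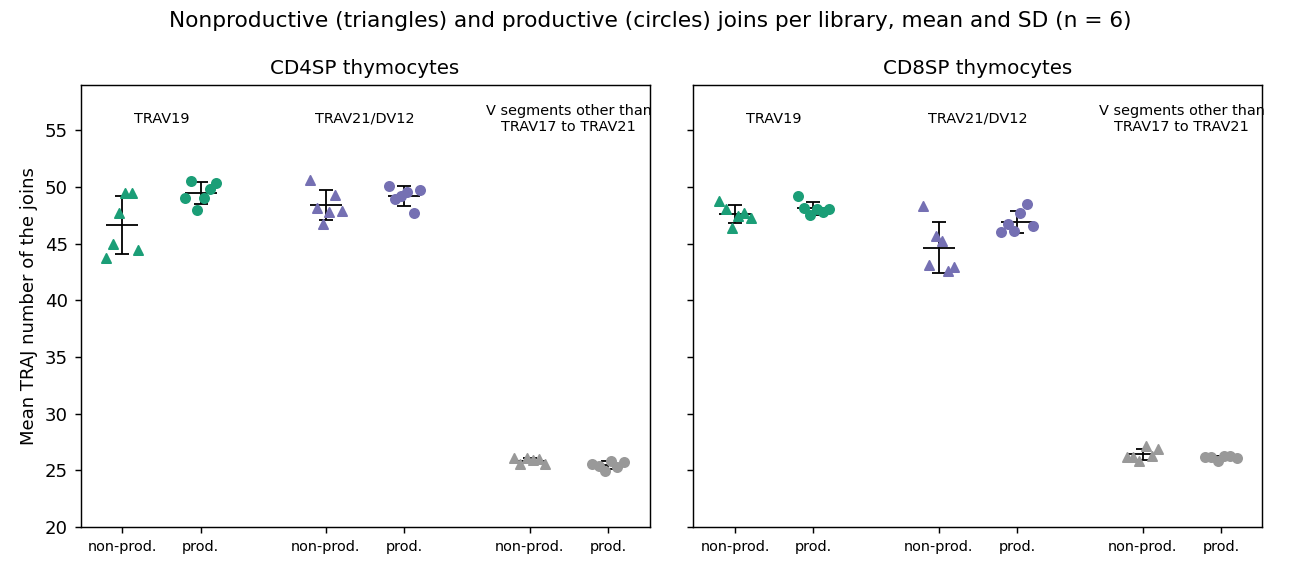
Mean TRAJ number (y axis) of nonproductive and productive joins in each library, with mean and SD of 6 libraries per cell type. Both kinds of join of TRAV19 and TRAV21/DV12 lie between 42.6 and 50.6, and those of V segments outside the 5 between 24.9 and 27.1.

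TRAV21/DV12 had a longer CDR3, counted with its V and J bases, than all other joins on average. Its CDR3 averaged 42.8 ± 0.313 nucleotides in CD4SP and 43.7 ± 0.335 in CD8SP, against 40.1 ± 0.0403 and 40.4 ± 0.0519 in all other joins (SD, n = 6), a difference of 2.69 (SE 0.14) and 3.27 (SE 0.14) with limma adjusted p of 3.17e-34 and 4.89e-41. The TRAV19 CDR3 was longer by 0.42 (SE 0.15, adjusted p = 0.00755) and 0.46 (SE 0.15, adjusted p = 0.00288), in 5 of 6 mice each, and the CD4SP call ended without knockout mouse 2 (0.34, adjusted p = 0.0715). In these tests 71.7% of 60 V segments passed in CD4SP and 80% in CD8SP. Inserted nucleotides between the V and J ends numbered 1.89 ± 0.147 in CD4SP and 2.48 ± 0.157 in CD8SP for TRAV21/DV12, against 1.71 ± 0.0217 and 1.80 ± 0.00953 in other joins. The difference was 0.18 (SE 0.066, adjusted p = 0.0209, with 51.7% of V segments called) and 0.68 (SE 0.066, adjusted p = 1.07e-09, with 58.3% called). The CD4SP call ended without knockout mouse 2 (0.16, adjusted p = 0.0894), WT mouse 1 (0.18, adjusted p = 0.0621) or WT mouse 2 (0.13, adjusted p = 0.123). For TRAV19 it was -0.09 and -0.07, which did not pass (adjusted p = 0.289 and 0.424). In CD4SP it passed without knockout mouse 1 (-0.17, adjusted p = 0.0485) and without the invariant chain (-0.18, adjusted p = 0.0316).

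Joins with no inserted nucleotide made up 34.0% ± 4.20 of TRAV21/DV12 reads in CD4SP and 29.1% ± 3.09 in CD8SP, against 37.5% ± 0.537 and 37.5% ± 0.322 in other joins. They were lower by 3.57 percentage points (SE 1.47, limma adjusted p = 0.0377, with 65% of V segments called) and by 8.33 (SE 1.47, adjusted p = 6.71e-05, with 68.3% called). The CD4SP call ended without knockout mouse 2 (-3.18, adjusted p = 0.105), knockout mouse 3 (-3.04, adjusted p = 0.131), WT mouse 1 (-3.27, adjusted p = 0.110) or WT mouse 2 (-2.48, adjusted p = 0.168). Both CD4SP calls of TRAV21/DV12 for insertions ended without the invariant chain (0.088 inserted nucleotides, adjusted p = 0.276, and -1.74 percentage points, adjusted p = 0.327). They also ended with each clonotype counted once (-0.019, adjusted p = 0.786, and 1.497, adjusted p = 0.444), as did the CD8SP call for joins with no insertion (-2.06, adjusted p = 0.276). TRAV19 was at 2.55 and 0.67 percentage points, and neither passed (adjusted p = 0.219 and 0.772). In CD4SP it passed with each clonotype counted once (4.68, adjusted p = 0.0212) and without the invariant chain (4.37, adjusted p = 0.0461).

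Clonotypes of these segments were small. Of TRAV19 clonotypes 42.3% had 1 read and the largest had 14, and of TRAV21/DV12 clonotypes 53.3% had 1 read and the largest had 10, against 50.4% with 1 read over all alpha chain clonotypes. Of 1066 TRAV19 clonotypes by amino acid sequence, 22.6% were found in at least 2 libraries and 25 in at least 6. Of 1595 from TRAV21/DV12, 18.4% and 24 were, and of 99371 from V segments outside the 5, 20.95% and 2074 were. The TRAV19 join with TRAJ56 printed first above was the only clonotype of the 5 segments with enough reads in enough libraries to pass edgeR's filter on low counts, with 160 reads in 7 nucleotide forms in 12 of 12 libraries. It had 9, 3 and 8 reads in knockout CD4SP, 10, 7 and 2 in WT CD4SP, 21, 26 and 22 in knockout CD8SP and 12, 19 and 21 in WT CD8SP libraries. At 0.0253% ± 0.0127 in CD4SP and 0.0642% ± 0.0104 in CD8SP (SD, n = 6) it was lower in CD4SP in 6 of 6 mice, with a log2 fold change of -1.42 (SE 0.54, edgeR adjusted p = 0.0275), where 58.7% of 286 clonotypes passed. The next most shared were TRAV19 with TRAJ57 (56 reads in 11 libraries), then in 9 libraries each the second TRAV19 join with TRAJ56 (48 reads) and TRAV21/DV12 with TRAJ57 (33 reads) and with TRAJ56 (32 reads). Those of TRAV17, TRAV18 and TRAV20 were found in 2 libraries at most.

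Between Chrna9 genotypes, none of the 4 segments with enough reads to test passed the threshold in usage. In CD4SP, TRAV21/DV12 averaged 1.39% ± 0.115 in knockout and 1.64% ± 0.102 in WT libraries (SD, n = 3 each), lower in the knockout in 3 of 3 same-numbered pairs. Its log2 fold change was -0.23 (SE 0.10, edgeR adjusted p = 0.512), in a comparison in which 1.6% of 125 segments passed. TRAV19 was at 0.873% ± 0.0171 and 0.909% ± 0.131, with -0.05 (SE 0.12), and TRAV17 and TRAV20 were at 0.37 (SE 0.51) and -0.21 (SE 0.75), with adjusted p of 0.989 for all 3. In CD8SP, TRAV21/DV12 averaged 0.888% ± 0.0390 and 0.988% ± 0.172, with -0.16 (SE 0.11), and TRAV19 averaged 1.23% ± 0.117 and 1.29% ± 0.0636, with -0.07 (SE 0.11). TRAV17 and TRAV20 were at -0.79 (SE 0.63) and -0.69 (SE 0.55). The edgeR adjusted p of these 4 ran from 0.796 to 0.922, and 0% of 125 segments passed, with 6 at an unadjusted p under 0.05 in edgeR, and 0 called by DESeq2 with 4 at that level. The genotype effect did not differ between CD4SP and CD8SP for any of the 4 past the threshold (edgeR adjusted p of 0.973 and 0.981, 0% of 125 called, 2 at an unadjusted p under 0.05, 0 called by DESeq2 with 1 at that level).

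The 5' lean also showed no called genotype difference. The excess in mean TRAJ number, knockout minus WT, was -0.24 (SE 0.77) for TRAV19 and 0.70 (SE 0.73) for TRAV21/DV12 in CD4SP, and 0.48 (SE 0.77) and -1.15 (SE 0.73) in CD8SP. The limma adjusted p ran from 0.54 to 0.996, and 0% of 60 V segments passed in CD4SP and 0% in CD8SP, with 3 and 7 at an unadjusted p under 0.05 in limma, the only tool run on this measure. With 3 mice a genotype, differences of the size of these standard errors could not be told from 0.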

How the data were processed

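Sorted thymocytes of 12 samples (6 mice) were profiled with a kit for the T cell receptor alpha and beta chains, and per the series design text the authors assembled clonotypes with MiXCR. Per the file headers, the deposited tables hold a read count and a read fraction per clonotype. The fraction is that count over the file's total (largest difference 9.97e-17), and it was used only for this check. Per the submitters' processing notes the genome build was mm10. The sources used here state neither MiXCR's version nor its parameters. Only alpha and delta chain tables were used, not those of the beta chain.

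Each clonotype was given its best V and J, and a clonotype was productive when its CDR3 was in frame and had no stop codon. All 143 of 143 segments were matched to RefSeq's mm10 gene table for positions. TRAJ42 to TRAJ61 were taken as the 5' end and TRAJ1 to TRAJ21 as the 3' end. Counts were tested with edgeR 4.0.16's quasi-likelihood test in R 4.3.3, scaled by plain library size, and mean TRAJ numbers and junction measures with limma 3.58.1 over V segments averaging at least 50 reads per library. Benjamini-Hochberg adjustment ran over all features of a test, with a threshold of 0.05. CD4SP and CD8SP were compared with the mouse as a block, and genotypes with the replicate number as a block, since the series design text names paired tests. Exact sign-flip tests over 6 mice used Python 3.11.15. Code was tested on simulated data. Alternatives included DESeq2 1.42.0, TMM factors, clonotypes counted once, removal of tied, 1-read or invariant clonotypes, and each mouse left out.

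The text names all 5 segments, up to 5 J partners and 5 V-J joins per segment and direction, the 3 most shared clonotypes per segment, neighbouring V segments with TRAV1 and TRAV2, and the 3 segments nearest in usage and in J partners. The members and lists were chosen with earlier results of these data known.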

Additional observations from a re-analysis of the deposited data

Results flagged for a closer look

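Among 46 tests for a library far from the others of its cell type, 2 were positive, where chance gives about 1 in 20. The share of TRAV19 reads joined to a 5' J segment was 76.8% in knockout CD8SP replicate 3, with the nearest CD8SP library at 80.4%. TRAV21/DV12 made up 1.19% of reads in WT CD8SP replicate 3, with the nearest at 0.913%.

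The lean of J partners to the 5' end, as the excess in mean TRAJ number over other joins, differed between CD4SP and CD8SP by 1.83 for TRAV19 (limma adjusted p = 0.00494) and by 2.99 for TRAV21/DV12 (limma adjusted p = 6.60e-07), in 6 of 6 mice each. The TRAV19 call ended under 4 alternatives, which gave 0.72 to 1.33 (adjusted p from 0.0716 to 0.348). The knockout minus WT difference in that excess for TRAV21/DV12 was 0.70 in CD4SP, above 0 in 3 of 3 same-numbered pairs, and -1.15 in CD8SP, below 0 in 3 of 3. Neither passed the threshold (limma adjusted p = 0.990 and 0.540), and the difference between the cell types was not tested.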

How the results depend on the processing

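Over 50 results and 570 alternative values, 523 kept the direction and the side of the threshold, and 28 results kept both under every alternative run. These include the CD4SP against CD8SP usage and the 5' lean of TRAV19 and TRAV21/DV12. Where a result changed, the cause was not tested.

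Counting each clonotype once gave TRAV19 usage, knockout minus WT in CD4SP, of 0.020, a TRAV19 CD4SP minus CD8SP difference in mean TRAJ excess of 1.23, and 2 TRAV19 and 1 TRAV21/DV12 joins lower in CD4SP. It gave TRAV21/DV12 inserted nucleotides in CD4SP of -0.019, and joins with no insertion of 4.68 percentage points for TRAV19 in CD4SP and of 1.497 and -2.06 for TRAV21/DV12 in CD4SP and CD8SP. Without the invariant chain the TRAV19 mean TRAJ difference was 1.27, inserted nucleotides in CD4SP were -0.18 for TRAV19 and 0.088 for TRAV21/DV12, and joins with no insertion 4.37 and -1.74. The TRAV19 mean TRAJ difference was 0.72 without tied clonotypes and 1.33 with other joins not subtracted, the last chosen after seeing the data. Without clonotypes of 1 read, the TRAV19 mean TRAJ difference by genotype in CD4SP was 0.14. The TRAV19 genotype by cell type term was -0.0099 with TMM factors and -0.017 with DESeq2.

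With each mouse left out in turn, the following ranges held. Usage, knockout minus WT, ran from -0.17 to 0.086 in CD4SP and from -0.15 to 0.038 in CD8SP for TRAV19, from -0.26 to 0.043 in CD8SP for TRAV21/DV12, from -0.090 to 0.95 in CD4SP and from -1.36 to 0.0055 in CD8SP for TRAV17, and from -0.51 to 0.22 in CD4SP for TRAV20. The genotype by cell type term ran from -0.078 to 0.14 for TRAV19 and from -0.022 to 1.08 for TRAV20. CD4SP over CD8SP usage ran from 0.74 to 1.498 for TRAV17 and from -1.06 to -0.65 for TRAV20. The TRAV19 mean TRAJ difference by genotype ran from -0.81 to 0.33 in CD4SP and from -0.12 to 0.92 in CD8SP. TRAV19 CDR3 length in CD4SP ran from 0.344 to 0.555, its inserted nucleotides in CD4SP from -0.175 to -0.0324 (called without knockout mouse 1), and its joins with no insertion in CD8SP from -0.166 to 2.06. For TRAV21/DV12 in CD4SP, inserted nucleotides ran from 0.132 to 0.239 and lost the call without knockout mouse 2, WT mouse 1 or WT mouse 2, and joins with no insertion ran from -4.95 to -2.48 and lost it without those or knockout mouse 3.

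With no replicate block, TRAV21/DV12 usage in CD4SP, knockout minus WT, was -0.23 (edgeR adjusted p = 0.589), that of TRAV19 -0.05, and no call changed. Correlations of deviations between same-numbered libraries were 0.241, -0.334 and -0.0277 in CD4SP and -0.083, 0.0438 and 0.0907 in CD8SP, so the numbers were not shown to pair the mice. Between the CD4SP and CD8SP libraries taken as 1 mouse they were 0.303, -0.0407 and 0.0758 in knockout and -0.0979, -0.0455 and -0.204 in WT, which does not show that they are the same mice either. With no mouse block, CD4SP over CD8SP usage was -0.50 for TRAV19 and 0.69 for TRAV21/DV12. Read depth limits TRAV17, TRAV18 and TRAV20, which had at most 22, 6 and 15 reads in a library.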
